A study of Arabidopsis thaliana with 12 samples.

Results

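The linker histone H1 family of Arabidopsis thaliana has 3 genes, HIS1-3 (AT2G18050), H1.1 (AT1G06760) and H1.2 (AT2G30620), and all 3 were found by their locus identifiers among the 23387 genes of the deposited expression table. The family as a whole was chosen by locus, after it was selected on the level of HIS1-3, which was already known to be higher in h3.3kd than in Col. Their RNA was measured by RNA sequencing of whole seedlings in 12 libraries, 3 from each of 4 genotypes. The line named h3.3kd;h2a.z, called the combined line below, joins lowered H3.3 with the h2a.z mutations. Lowered H3.3 alone is h3.3kd, the h2a.z mutations alone are h2a.z, and Col is the wild type. The genotype labels of both groups with lowered H3.3 read h3.3kd-1, and the sources used here do not give the alleles behind h3.3kd and h2a.z. Seedlings of all 4 genotypes were 7 days old, were raised in short days at 21 °C and were moved to 27 °C for 12 h, so no library shows the family without the warm treatment. The labels do not say whether replicates came from separate cultures, so the p-values measure only the spread between these libraries.

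Linker histones sit on the DNA that enters and leaves the nucleosome and favour a closed, compact chromatin fibre. They have a central globular domain of the winged-helix kind and tails rich in lysine. H1.1 and H1.2 are the main forms of most Arabidopsis cells, while HIS1-3, also called H1.3, is a shorter and divergent form known from guard cells and from plants under drought, abscisic acid (ABA) or low light. Some nucleosomes carry H3.3 or H2A.Z in place of the usual H3 or H2A, and H3.3 in Arabidopsis has been described as limiting the presence of H1 on gene bodies.

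The genes that the genotype names refer to were low where the labels place them. HTR4, HTR5 and HTR8, which encode H3.3, averaged 54.7, 63.7 and 8.55 TPM in the combined line (TPM is a level corrected for transcript length and scaled to the library) and 55.1, 79.4 and 11.1 TPM in h3.3kd, against 355, 302 and 168 TPM in h2a.z and 448, 478 and 239.8 TPM in Col. HTR5 (-0.65 ± 0.17, adjusted p = 0.014) and HTR8 (-0.49 ± 0.16, adjusted p = 0.045) were also called lower in h2a.z against Col. Of the 6 targeted genes, 5 were called lower there, where 4.56% of tested genes were, and 3 with h2a.z 2 or Col 1 left out. Among the H2A.Z genes, HTA11 averaged 4.13 TPM in the combined line and 2.58 in h2a.z, against 37.5 in h3.3kd and 46.3 in Col. HTA8 was below 1 TPM in both lines with h2a.z, against 8.86 TPM in h3.3kd and 14.8 in Col. HTA9 kept more RNA, at 87.2 TPM in the combined line and 32.1 in h2a.z, against 212 in h3.3kd and 255 in Col. HTA9 was called higher in the combined line than in h2a.z (1.41 ± 0.22, adjusted p = 3.1e-04). These lines therefore differ in the RNA of an H2A.Z gene as well as in that of the H3.3 genes. The libraries held 19590 to 22019 genes above 0, and the fewest were in h3.3kd 2, which also lay farthest from its genotype mean over all genes (root mean square 0.405 on the log2 scale, against 0.183 to 0.324 in the others). TPM values keep no record of read depth, so the counting error behind each value is unknown.

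The promoters of the 3 genes are shown because the genes moved together across the genotypes, as described below. Each sequence is the 250 bases before the annotated gene start in the RefSeq annotation of TAIR10.1, read on the strand of the gene, with any match to a searched motif in capitals. The submitters' processing notes name TAIR10, and no coordinate of the deposited table was used. The window of HIS1-3 is chr2:7845673-7845922 on the plus strand, that of H1.1 is chr1:2077768-2078017 on the minus strand and that of H1.2 is chr2:13044681-13044930 on the plus strand.
HIS1-3: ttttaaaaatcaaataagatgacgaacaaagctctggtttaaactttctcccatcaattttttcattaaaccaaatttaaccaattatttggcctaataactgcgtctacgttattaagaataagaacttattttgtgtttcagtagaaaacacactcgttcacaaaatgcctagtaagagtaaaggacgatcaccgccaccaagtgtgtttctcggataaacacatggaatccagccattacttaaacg
H1.1: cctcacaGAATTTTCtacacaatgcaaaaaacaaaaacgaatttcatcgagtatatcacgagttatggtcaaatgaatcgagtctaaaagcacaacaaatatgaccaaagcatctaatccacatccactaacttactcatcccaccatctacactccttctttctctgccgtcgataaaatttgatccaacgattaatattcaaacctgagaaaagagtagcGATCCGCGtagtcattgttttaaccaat
H1.2: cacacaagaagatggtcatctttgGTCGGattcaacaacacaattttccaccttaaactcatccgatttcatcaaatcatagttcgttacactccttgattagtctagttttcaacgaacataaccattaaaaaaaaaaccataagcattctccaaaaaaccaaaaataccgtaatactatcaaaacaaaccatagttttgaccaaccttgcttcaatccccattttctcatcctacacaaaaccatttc
The motifs were searched on both strands in the promoters of 27443 nuclear protein-coding genes. The plant histone octamer CGCGGATC was found in H1.1, on the opposite strand from 28 bases before the start, and in 0.135% of all promoters (37 of 27443). The heat shock element GAANNTTC was found in H1.1 and in 9.55% of all, and the dehydration-responsive core CCGAC in H1.2 and in 12.0%. The ABA-responsive core ACGTG (22.9% of all promoters), the G-box CACGTG that contains it (6.49%), the telo-box AAACCCTA (4.49%) and the TATA box TATAAA (47.3%) had no match in any of the 3 windows. A match describes letters and not a bound site.

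The gene of HIS1-3 lies at chr2:7845923-7847031, that of H1.1 at chr1:2076504-2077767 and that of H1.2 at chr2:13044931-13046682 (TAIR10.1), and the longest coding form of each has 2 exons. HIS1-3 encodes 167 residues, against 274 for H1.1 and 273 for H1.2, and lysine makes up 25.1%, 23.4% and 23.8% of them in that order. H1.1 and H1.2 have 66.0% identical residues where they align (259 positions). HIS1-3 has 47.0% with H1.1 and 44.0% with H1.2. The longest identical run between the spliced transcripts is 17 bases, between H1.1 and H1.2, within the coding part (caatacgcgattcagaa). The H1.1 gene body overlaps AT1G06750 and a long non-coding RNA gene on the other strand, by 486 bases when the 2 overlaps are added. That of H1.2 overlaps AT2G30630 by 21 bases. The sources used here do not state whether the library and the counting used strand, and reads of overlapping genes cannot then be told apart. AT1G06750 averaged at most 0.0508 TPM and AT2G30630 at most 0.0819 TPM in any genotype. The long non-coding RNA gene is not among the genes of the deposited expression table, so its level is unknown.

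HIS1-3, the stress-inducible member, had 756, 625 and 714 TPM in the combined line, 1461, 966 and 1598 TPM in h3.3kd, 31.4, 18.8 and 28.1 TPM in h2a.z, and 103, 50.5 and 119 TPM in Col. The 6 libraries with lowered H3.3 were all above the 6 others, and no genotype overlapped another. The share of all tested genes that separate in this way was not computed, here or for H1.1 and H1.2 below. The genotype means differed 51.4-fold between the highest, h3.3kd, and the lowest, h2a.z. By the range of its genotype means on the log2(TPM + 1) scale, HIS1-3 was 14th of 19937 tested genes. The fold difference and this place rest on the high h3.3kd level already known when the family was chosen, so they are descriptions. In rank by TPM within a library HIS1-3 stood between 46th and 92nd of all genes in h3.3kd, and between 6044th and 9066th in h2a.z.

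H1.1, a main linker histone, had 560.1, 499 and 589 TPM in the combined line, 583, 484 and 599 TPM in h3.3kd, 299, 309 and 320.3 TPM in h2a.z, and 419, 429 and 419 TPM in Col. Its levels in the combined line and in h3.3kd overlapped and averaged 549 ± 46.0 and 555 ± 62.2 TPM (SD, n = 3 each). Both stood above Col and h2a.z in every library, and h2a.z was lowest.

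H1.2, the other main form, had 490.2, 470.0 and 506 TPM in the combined line, 658, 562 and 651 TPM in h3.3kd, 222, 204 and 207 TPM in h2a.z, and 287, 269.7 and 298 TPM in Col. No genotype overlapped another. Its highest and lowest genotype means differed 2.95-fold, against 1.80-fold for H1.1.

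**Figure D1:**
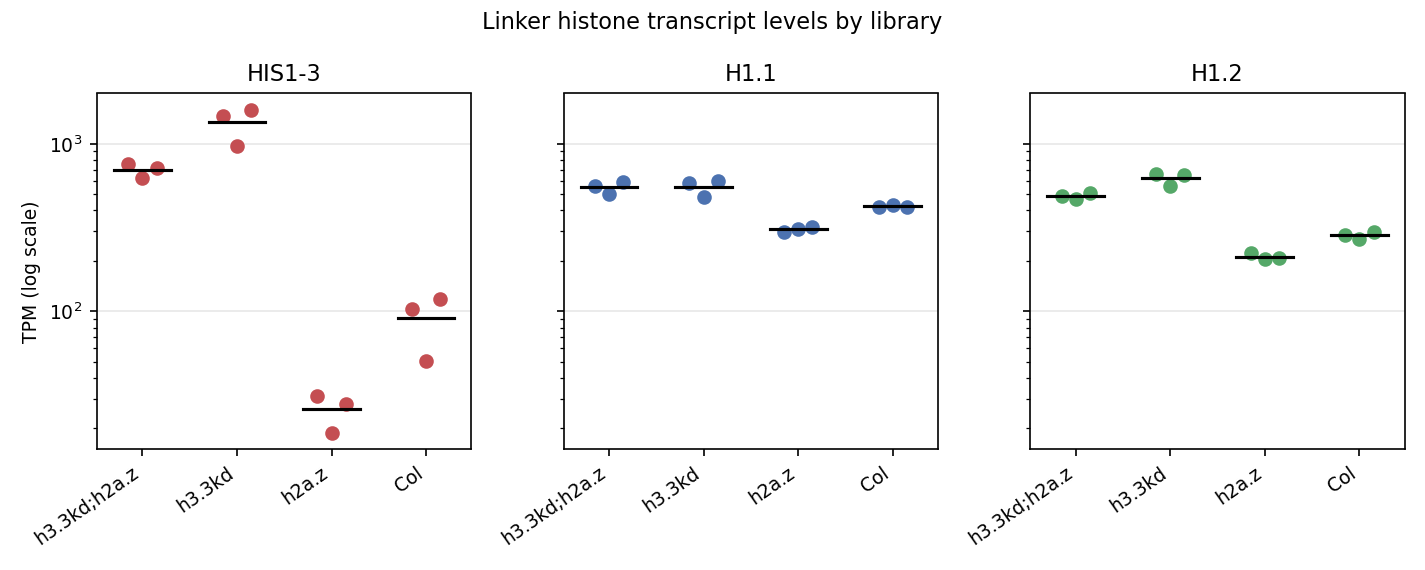
TPM on a log axis for each of the 12 libraries (points) with the genotype mean (line), 1 panel per gene. HIS1-3 runs from 18.8 to 1598 TPM, and all 3 genes are lowest in h2a.z.

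The family was taken up with the rise of HIS1-3 in h3.3kd against Col already known, so that comparison is given as a description with no test. The h3.3kd means were 1342 ± 332 TPM for HIS1-3, 555 ± 62.2 for H1.1 and 624 ± 53.4 for H1.2, against 90.7 ± 35.7, 422 ± 5.91 and 285 ± 14.3 TPM in Col (SD, n = 3 each). The fitted log2 fold changes of TPM + 1 were 3.93 ± 0.28 for HIS1-3, 0.39 ± 0.12 for H1.1 and 1.13 ± 0.11 for H1.2 (± standard error). All 3 were above Col in every h3.3kd library, as 8.93% of tested genes were.

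The comparison of the combined line with h2a.z asks the same of plants without normal H2A.Z. Its fold changes use no library of h3.3kd or Col. Its standard errors and p-values do, because the spread of each gene was estimated over all 12 libraries. All 3 linker histone genes rose, where 5.34% of 19937 tested genes were called higher at an adjusted p under 0.05. That share is 1065 genes, and it was 1883 genes with median ratio scaling, 2512 with quantile normalization, and 624, 693 and 678 with replicate 1, 2 or 3 of the combined line left out. HIS1-3 averaged 698 ± 66.9 TPM in the combined line and 26.1 ± 6.53 TPM in h2a.z (SD, n = 3 each), a log2 fold change of 4.72 ± 0.28 (adjusted p = 9.7e-08). That was the second highest log2 fold change of all tested genes. H1.2 averaged 489 ± 18.3 and 211 ± 9.65 TPM (1.21 ± 0.11, adjusted p = 3.6e-06) and was 205th. H1.1 averaged 549 ± 46.0 and 309 ± 10.7 TPM (0.82 ± 0.12, adjusted p = 1.6e-04) and was 475th. The median over all tested genes was -0.145, or -0.016 after rescaling by median ratios, and the 3 calls held with both. These are whole seedlings, in which more cells that express a gene and more RNA per cell cannot be told apart.

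**Figure D2:**
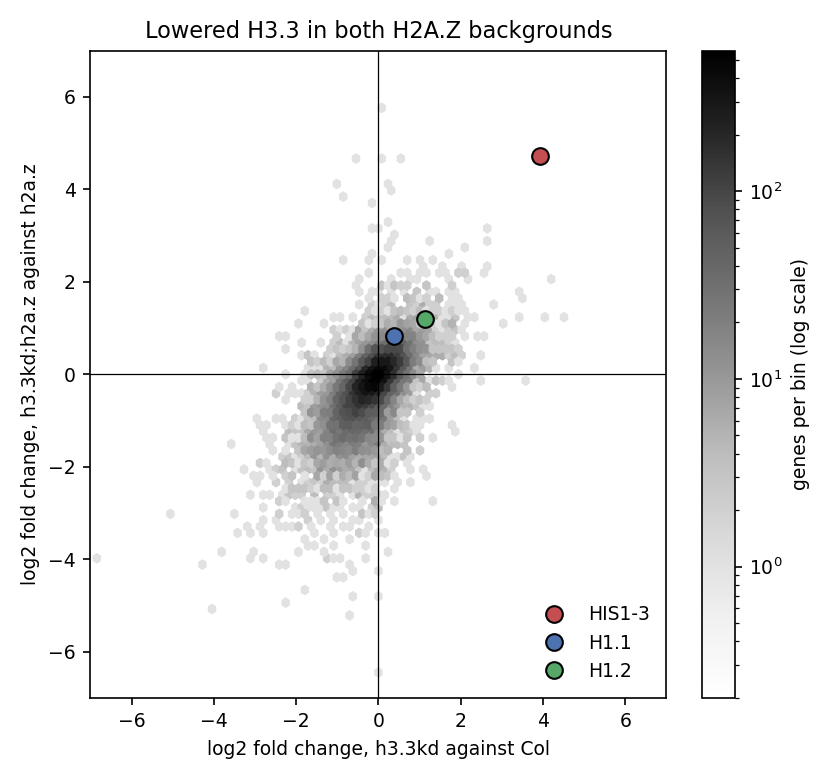
Log2 fold change of TPM + 1 with lowered H3.3, in plants with H2A.Z (x axis, h3.3kd against Col) and in plants without normal H2A.Z (y axis, the combined line against h2a.z), for 19937 genes as bins shaded by count, with the linker histone genes as points. HIS1-3 lies at 3.93 and 4.72, and H1.1 and H1.2 lie in the same quadrant.

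The change with lowered H3.3 was compared between the backgrounds as a difference of log2 fold changes, in h2a.z plants minus plants with H2A.Z, with no test because the comparison already known is part of it. It was 0.79 ± 0.39 for HIS1-3, 0.44 ± 0.16 for H1.1 and 0.08 ± 0.15 for H1.2 (± standard error). For HIS1-3 it was 1.16 without the library Col 2. For H1.2, whose difference is smaller than its standard error, it ran between 0.0079 without h3.3kd 2 and 0.12 without h3.3kd 1.

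The comparison of h2a.z with Col sets the h2a.z mutations against the wild type, without h3.3kd, and it shares Col with the comparison already known. All 3 genes fell, where 4.56% of tested genes were called lower. HIS1-3 averaged 26.1 ± 6.53 TPM in h2a.z and 90.7 ± 35.7 TPM in Col (log2 fold change -1.70 ± 0.28, adjusted p = 6.9e-04). H1.1 averaged 309 ± 10.7 and 422 ± 5.91 TPM (-0.45 ± 0.12, adjusted p = 0.016). H1.2 averaged 211 ± 9.65 and 285 ± 14.3 TPM (-0.43 ± 0.11, adjusted p = 0.014). The call of H1.1 ended at adjusted p = 0.055 without h2a.z 1 and 0.061 without h2a.z 2. That of H1.2 ended at 0.069 without h2a.z 2, 0.055 without h2a.z 3 and 0.054 without Col 3. Of all tested genes, 303 (1.52%) were called both lower here and higher in the combined line against h2a.z. The linker histone genes were 3 of these 303, and the pair of comparisons shares the h2a.z libraries.

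Against Col, the combined line had all 3 genes higher, where 6.17% of tested genes were called higher, and Col is again shared. HIS1-3 was known to be lower in Col than in h3.3kd when the family was chosen, which favours a higher call here. The log2 fold changes were 3.02 ± 0.28 for HIS1-3 (adjusted p = 6.4e-06), 0.78 ± 0.11 for H1.2 (adjusted p = 2.0e-04) and 0.37 ± 0.12 for H1.1 (adjusted p = 0.037). The H1.1 call ended when any of 7 libraries was left out, namely replicate 1 or 3 of the combined line (adjusted p = 0.12 and 0.15), replicate 2 or 3 of h2a.z (0.057 and 0.0504) or replicate 1, 2 or 3 of Col (0.066, 0.063 and 0.081).

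The combined line against h3.3kd sets plants with the h2a.z mutations against plants without them where H3.3 is lowered. It shares h3.3kd with the known comparison, and the high HIS1-3 level known there favours a lower value here. None of the 3 genes was called by limma (0 of 3, 2 of 3 at an unadjusted p under 0.05), where 4.25% of tested genes were called in either direction. HIS1-3 averaged 698 ± 66.9 TPM in the combined line and 1342 ± 332 TPM in h3.3kd (log2 fold change -0.91 ± 0.28, adjusted p = 0.09). H1.2 averaged 489 ± 18.3 and 624 ± 53.4 TPM (-0.35 ± 0.11, adjusted p = 0.098), and H1.1 was at -0.01 ± 0.12 (adjusted p = 0.98). The libraries of HIS1-3 and H1.2 did not overlap between these genotypes, as for 10.1% of tested genes on the lower side. Without h3.3kd 2, the library farthest from its genotype mean, HIS1-3 was at -1.13 (adjusted p = 0.033) and H1.2 at -0.42 (adjusted p = 0.024), and without Col 2 HIS1-3 had adjusted p = 0.022.

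**Figure D3:**
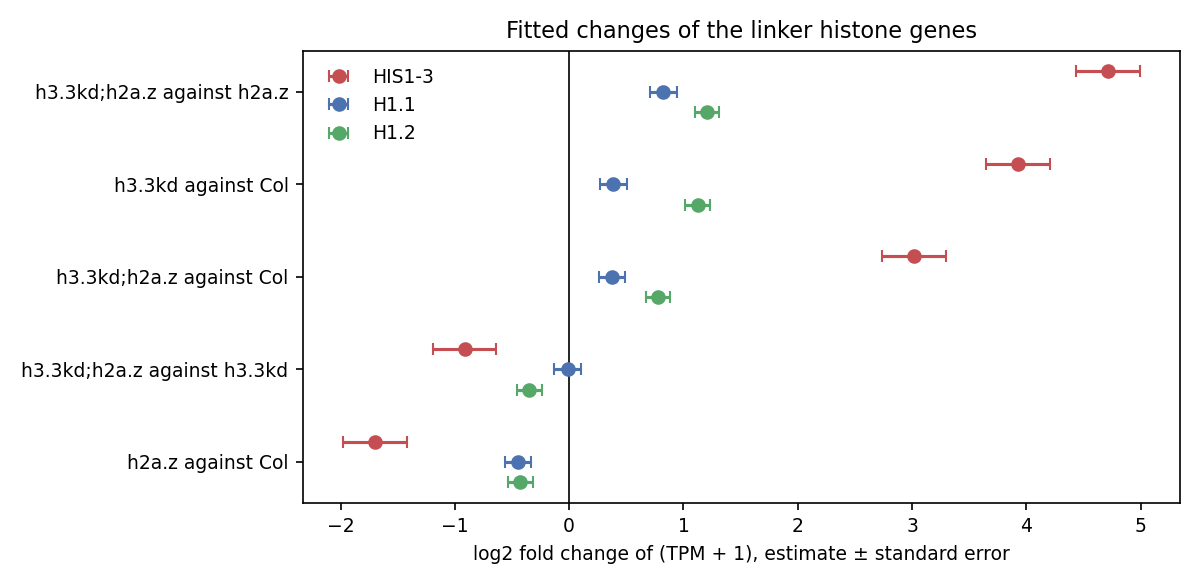
Fitted log2 fold change of TPM + 1 (points) with its standard error (bars) for the 3 linker histone genes in 5 comparisons. All 3 genes are positive where a line with lowered H3.3 is set against h2a.z or Col, and HIS1-3 has the largest size in each comparison.

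Because TPM is a level per transcript length, the 3 genes can be added to give the linker histone transcript pool. The pool was 1736 ± 124 TPM in the combined line, 2520.4 ± 446 in h3.3kd, 547 ± 13.1 in h2a.z and 798 ± 44.2 in Col (SD, n = 3 each). HIS1-3 made up 39.2% to 41.8% of the pool in the combined line and 48.0% to 56.1% in h3.3kd, against 3.53% to 5.68% in h2a.z and 6.74% to 14.2% in Col. It was the most abundant linker histone transcript in every library with lowered H3.3 and the least abundant in every other library. H1.1 and H1.2 without HIS1-3 still summed to 1038 ± 64.1 TPM in the combined line and 1179 ± 115 in h3.3kd, against 521 ± 7.40 in h2a.z and 707 ± 9.30 in Col.

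**Figure D4:**
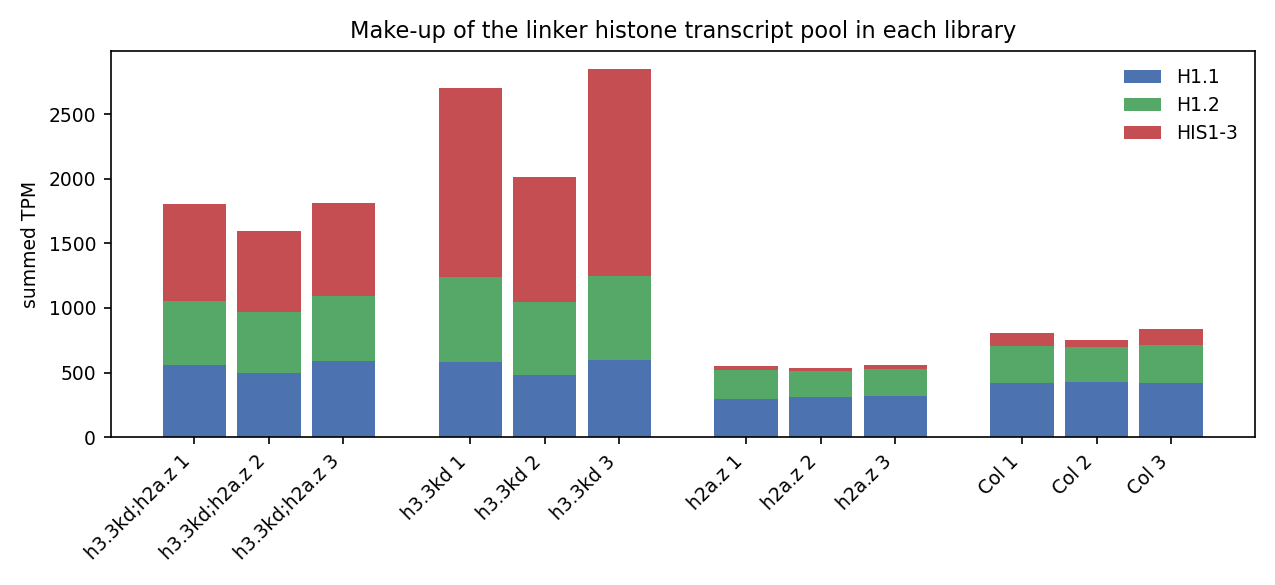
Summed TPM of the 3 linker histone genes in each library, stacked by gene. HIS1-3 is the largest share in the 6 libraries with lowered H3.3 and the smallest in the h2a.z and Col libraries.

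The main pair also shifted against each other. H1.2 stood at 0.861 to 0.943 times H1.1 in the combined line and at 1.09 to 1.16 times in h3.3kd, against 0.648 to 0.744 in h2a.z and 0.628 to 0.711 in Col. A ratio within a library does not depend on how libraries are scaled. Between the combined line and h2a.z neither this ratio nor the HIS1-3 share of the pool overlapped (two-sided exact permutation p = 0.1 for each, the smallest that 3 libraries against 3 allow). In h2a.z against Col the ratio overlapped (exact permutation p = 0.9). The HIS1-3 share did not overlap there and averaged 4.76% in h2a.z and 11.2% in Col (exact permutation p = 0.1).

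Other proteins carry the same globular domain (GH1), among them HMGA proteins with AT-hook motifs and telomere repeat binding (TRB) proteins of the Myb kind. Of 12 GH1 domain genes listed, some of neither kind, 10 were in the table and tested. In the combined line against h2a.z, 3 rose and 7 were not called, where 5.34% of all tested genes were called higher, with a median log2 fold change of 0.149 against -0.145 over all tested genes. The 3 were those of the HMGA kind. HMGA (AT1G14900) had 263.6, 233 and 258 TPM in the combined line and 81.0, 74.7 and 85.6 TPM in h2a.z (1.63 ± 0.11, adjusted p = 2.7e-07). HON4 (AT3G18035) averaged 240.5 ± 16.8 and 138 ± 18.6 TPM (0.80 ± 0.18, adjusted p = 0.0049). HON5 (AT1G48620) averaged 87.2 ± 6.37 and 62.8 ± 2.53 TPM (0.47 ± 0.14, adjusted p = 0.021), and HON5 was not called when replicate 1 or 2 of the combined line (adjusted p = 0.084 and 0.079) or replicate 2 or 3 of h2a.z (0.052 and 0.074) was left out. With quantile normalization 5 of the 10 were called higher, while the number over all tested genes went from 1065 to 2512. The 5 TRB genes ran from -0.10 to 0.24 in the same comparison, and none was called (adjusted p 0.35 to 0.82). The tested genes of neither kind were at 0.54 and -0.22, and neither was called (adjusted p = 0.13 and 0.63). In h2a.z against Col, where 4.56% of all tested genes were called lower, HMGA was the 1 gene of the 10 that fell (80.4 ± 5.50 against 190 ± 12.5 TPM, -1.23 ± 0.11, adjusted p = 2.8e-06). The number that fell was 2 with median ratio scaling, with quantile normalization, or with h3.3kd 1 or h3.3kd 2 left out, and 3 with array weights. Over all tested genes the number called lower, 909, was 1080, 1578, 1007, 1275 and 1932 under these settings in turn.

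Among 27 other core histone genes tested in the combined line against h2a.z, 8 rose, 5 fell and 14 were not called (median 0.144). Of all tested genes 5.34% were called higher and 19.3% lower, so the number that fell is near the share over all genes. An H4 gene, AT3G53730, averaged 331 ± 20.3 TPM in the combined line and 64.0 ± 5.98 in h2a.z (2.36 ± 0.17, adjusted p = 5.2e-07). The H2B gene HTB1 (AT1G07790) averaged 68.3 ± 7.98 and 168 ± 12.2 TPM (-1.29 ± 0.17, adjusted p = 8.6e-05). The number that fell was 2 with median ratio scaling, and 3 when replicate 2 of the combined line or replicate 1 or 2 of h2a.z was left out. The number that rose was 5 with replicate 2 of h2a.z left out. Of 14 genes of DNA replication and mitosis, 8 fell and 6 were not called (median -0.737, where 19.3% of all tested genes were called lower), among them the replication clamp PCNA1 (-1.19 ± 0.19, adjusted p = 4.8e-04). With replicate 3 of the combined line left out, 5 fell.

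HIS1-3 is known as a drought and ABA responsive gene, and 26 genes of that response were set beside it. In the combined line against h2a.z, 6 rose, 2 fell and 18 were not called, where 5.34% of all tested genes were called higher and 19.3% lower. The median was 0.115, against -0.145 over all tested genes. AFP1 (AT1G69260), an interactor of the ABA factor ABI5, averaged 40.7 ± 1.84 TPM in the combined line and 13.6 ± 2.57 in h2a.z (1.52 ± 0.19, adjusted p = 4.9e-05). The dehydrins LTI30 (-1.99 ± 0.17, adjusted p = 2.9e-06) and COR47 (-0.99 ± 0.17, adjusted p = 9.0e-04) were the 2 that fell. In h2a.z against Col, where HIS1-3 fell, 7 fell and 19 were not called (median -0.294), where 4.56% of all tested genes were called lower. That count was 4 when any 1 replicate of h2a.z was left out, and 3 when replicate 3 of Col was left out. In the combined line against h3.3kd, 0 rose, 9 fell and 17 were not called, where 4.25% of all tested genes were called in either direction. The median there was -0.847, against 0.0109 over all tested genes, and 6 to 23 fell under the other settings. In h3.3kd against Col, given with no test, the median was 0.611, against -0.12 over all tested genes. The 26 genes summed to 711 to 827 TPM in the combined line, 1166 to 1779 in h3.3kd, 721 to 808 in h2a.z and 882 to 1284 in Col, so the combined line and h2a.z overlapped.

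Markers of other cell types moved between the same genotypes, and their part in the linker histone results was not tested. Seed markers, 16 in the table, summed to 254 to 629 TPM in the combined line, 102 to 143 in h3.3kd, 102 to 197 in h2a.z and at most 27.8 in Col. Of 11 seed markers tested, 7 were higher in the combined line than in h2a.z, where 5.34% of all tested genes were called higher. Leaving out replicate 1 or 3 of the combined line left 1 and 2 of these calls, and leaving out replicate 1 or 3 of h2a.z left 3 and 2. The seed regulator gene LEC1 was listed at 0 in every library of the combined line, h3.3kd and Col. In h2a.z against Col, 4 of the 11 were called higher, 1 lower and 6 not called. Of all 19937 tested genes, 2100 were called higher and 909 lower in that comparison. Guard cells are a known site of HIS1-3, and the 9 guard cell markers summed to 242 to 253 TPM in the combined line, 245 to 279.8 in h3.3kd, 415 to 423 in h2a.z and 302 to 351 in Col. In the combined line against h2a.z, 3 of 8 tested markers fell, where 19.3% of all tested genes were called lower. That count was 1 when replicate 1 or 3 of the combined line or any replicate of h2a.z was left out. Most of that sum is 1 gene, the cutin enzyme gene CYP86A2, at 196 ± 6.27 TPM in the combined line and 355 ± 11.4 in h2a.z. The 10 root markers summed to 131 to 144 TPM in the combined line, 89.5 to 179 in h3.3kd, 238 to 268 in h2a.z and 176 to 206 in Col, and 5 of 10 fell in the combined line against h2a.z, where 19.3% of all tested genes were called lower.

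**Figure D5:**
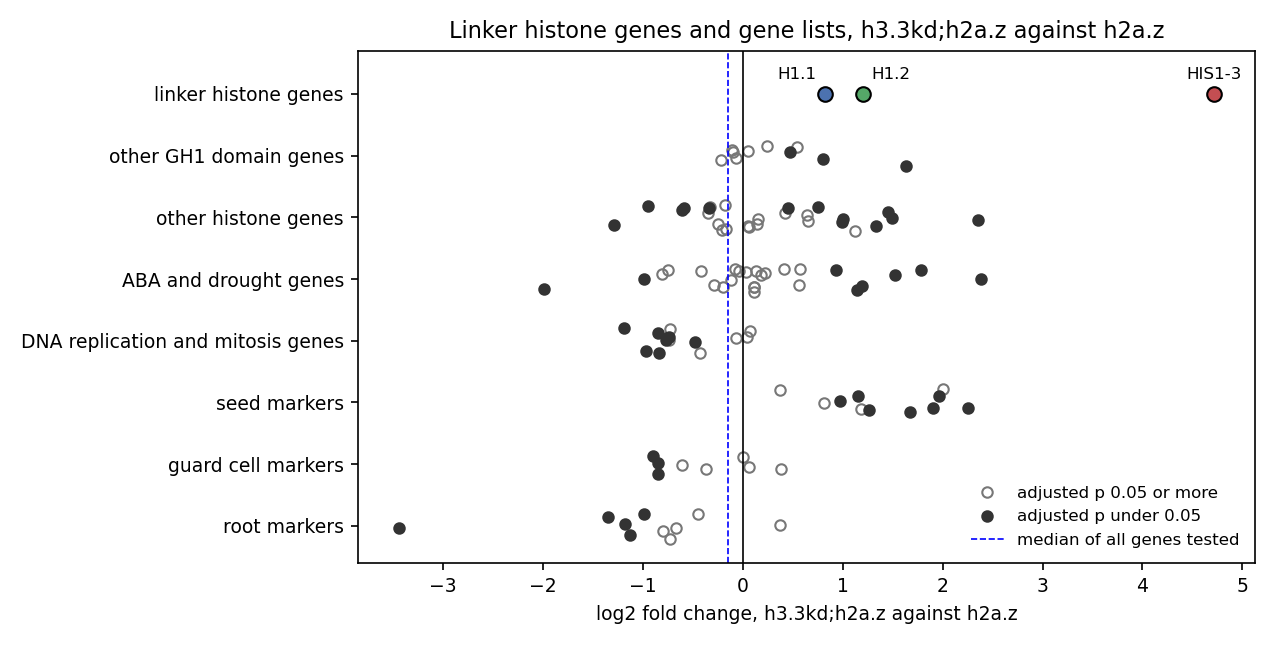
Log2 fold change of TPM + 1 in the combined line against h2a.z for the linker histone genes (top row) and for each tested gene of 7 lists, filled where adjusted p is under 0.05. The dashed line is the median of all tested genes (-0.145), and HIS1-3 at 4.72 lies to the right of every listed gene.

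Likeness to the 3 genes was measured as Pearson's r of log2(TPM + 1) over the 12 libraries among 15251 tested genes with a mean of at least 5 TPM. The libraries fall into 4 genotypes, so r mostly follows the genotype means, and it is a description with no test. The gene most like HIS1-3 was H1.2, and the gene most like H1.2 was HIS1-3 (r = 0.994), though their sizes of change differ. H1.1 was 47th for HIS1-3 (r = 0.942) and 50th for H1.2 (r = 0.940). Next for both was AT2G46550, annotated as an uncharacterized protein, at 106 TPM in the combined line, 115 in h3.3kd, 63.6 in h2a.z and 74.4 in Col (r = 0.991 with each). HDA08 (AT1G08460), annotated as a histone deacetylase, was among the 5 most alike for each of the 3 genes (r = 0.970 to 0.980). It averaged 51.6 TPM in the combined line, 53.0 in h3.3kd, 26.4 in h2a.z and 34.5 in Col.

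Further genes among the 5 most like HIS1-3 were FBH3 (AT1G51140), a bHLH transcription factor, at r = 0.978, and PEX11C (AT1G01820), a peroxisome gene, at r = 0.976. For H1.1 the most alike was FDM2 (AT4G00380), of the RNA-directed DNA methylation family FDM, at r = 0.975, followed by the lipid transfer protein LTP2 (AT2G38530, r = 0.972) and the cysteine proteinase CEP1 (AT5G50260, r = 0.971). FDM2 averaged 26.4 TPM in the combined line, 28.5 in h3.3kd, 8.94 in h2a.z and 16.0 in Col. FBH3 was also among the 5 for H1.2 (r = 0.980), and AT5G17900, annotated as a microfibrillar-associated protein-like protein, was among the 5 for H1.1 (r = 0.960) and for H1.2 (r = 0.972).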

How the data were processed

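RNA sequencing values of 12 Arabidopsis seedling libraries, 3 per genotype, were taken from the table of TPM that the authors deposited. Per the submitters' processing notes, fastp 0.20.1, HISAT2 2.1.10, HTSeq 0.11.2 and DESeq2 1.26.0 were used with TAIR10. The sources used here do not state the gene lengths, counting mode or filters behind the values. Groups and replicate numbers came from the sample titles, every column matched 1 sample, and no 2 columns were identical.

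Tests used log2(TPM + 1). Genes that reached 1 TPM in 3 or more libraries were kept, 19937 with the 3 linker histone genes among them. A log2 fold change on this scale understates the change of low genes. One limma 3.58.1 model (R 4.3.3) fitted 1 mean per genotype, with trended eBayes moderation of the variances. The Benjamini-Hochberg adjustment ran over the 19937 genes, and calls were made at adjusted p < 0.05. The method was also run on simulated data with independent normal values for each gene and library. That run cannot show how calls behave where libraries deviate together. TPM values are not counts and their depth is unknown, so no count test was run and no counting interval is given.

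Of 23387 identifiers, 23235 matched a RefSeq locus tag (TAIR10.1). Sequences, gene models and coding lengths came from that reference, and residues were aligned with Biopython 1.88 after translation. The figures used Python 3.11.15 with matplotlib 3.10.9.

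The members, the gene lists and the tests were chosen with earlier results of these data known. The lists were the targeted histone genes, other GH1 domain genes, other histone genes, ABA and drought genes, genes of DNA replication and mitosis, and markers of seed, guard cell and root. Genes named were the members, the targeted histone genes, the 5 most alike to each member, and up to 3 calls per list, by smallest adjusted p, in the combined line against h2a.z. LEC1 was named after its values were seen. Across genes, same-numbered libraries deviated together in every pair only for h3.3kd and Col (r 0.115 to 0.314), the comparison given with no test. Alternatives were other pseudocounts, filters and scalings, array weights, a robust eBayes step, the replicate number as a block, a fit of the compared genotypes alone, and each library left out in turn.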

Additional observations from a re-analysis of the deposited data

How the results depend on the processing

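The 18 linker histone results (3 genes in 5 comparisons and in the difference of H3.3 effects) were recomputed under 10 other settings, of which the difference could be fitted under 9, and with each of the 12 libraries left out, 393 values in all. Of these, 370 kept their direction and their side of the threshold or moved by less than 1 SD. In the combined line against h2a.z all 3 genes kept their calls under every setting run, with log2 fold changes of 4.51 to 4.87 for HIS1-3, 0.77 to 0.96 for H1.1 and 1.18 to 1.35 for H1.2.

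Leaving out 1 library gave 3.56 to 4.17 for HIS1-3 in h3.3kd against Col, and 0.55 to 1.16 for its difference of H3.3 effects. It gave -0.47 to -0.42 for H1.1 and -0.47 to -0.40 for H1.2 in h2a.z against Col, and 0.32 to 0.44 for H1.1 in the combined line against Col. In the combined line against h3.3kd it gave -1.13 to -0.77 for HIS1-3, -0.11 to 0.05 for H1.1 and -0.42 to -0.31 for H1.2. H1.1 was above 0 there without h3.3kd;h2a.z 2 (0.054), h3.3kd 1 (0.025) or h3.3kd 3 (0.044).

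In the same comparison array weights, whose fit stopped before its convergence tolerance, called HIS1-3 (-1.15, adjusted p = 9.0e-04) and H1.2 (-0.41, adjusted p = 5.9e-04). The replicate number as a block called HIS1-3 there (-0.91, adjusted p = 0.0054) and changed no other linker histone call. Across genes, same-numbered libraries of these 2 genotypes deviated from their means with r of -0.0043 to 0.158. The mean r was 0.0889 for the same number and -0.0434 for other numbers. For HIS1-3 and H1.2, replicate 2 was the lowest library in every genotype. For H1.1 it was the lowest in these 2 genotypes, but not in h2a.z or Col. Whether the numbers pair the libraries for these genes was not tested, nor was the cause of the changed calls.

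Array weights moved the count of called genes to 6817 from 3450 in h3.3kd against Col, to 5516 from 3009 in h2a.z against Col, to 6291 from 3738 in the combined line against Col, to 9173 from 4916 against h2a.z, and to 5471 from 848 against h3.3kd. A fit of only the genotypes compared gave 1071, 7872 and 380 in h3.3kd against Col and in the combined line against h2a.z and h3.3kd. The genes called higher in the combined line against h2a.z, 1065, were 2621 with array weights, 2125 with only the genotypes compared and 690 without h2a.z 2. Leaving out Col 1 gave 2177 in h3.3kd against Col. Without h3.3kd;h2a.z 2 or 3 there were 2363 and 2420 in the combined line against Col. Against h3.3kd there were 492, 421 and 468 without h3.3kd;h2a.z 1, 2 and 3, and 1545 without h3.3kd 2. With median ratio scaling the share of called genes that were higher was 48.0% against 31.3% in h3.3kd against Col, 45.9% against 32.9% in the combined line against Col, and 38.1% against 21.7% in the combined line against h2a.z. Quantile normalization gave 52.8%, 50.2% and 50.4% there, and 54.6% against 69.8% in h2a.z against Col. In the combined line against h2a.z, the root markers that fell were 3 with a filter of 5 TPM or quantile normalization and 8 with array weights or only the compared genotypes. The guard cell markers that fell were 1 with no filter or quantile normalization. Among all genes tested under each setting, those called lower were 3851 in the main fit and 2784 with the filter of 5 TPM. They were 2473 with quantile normalization, 6552 with array weights, 5747 with only the compared genotypes and 4142 with no filter.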
